A study of Mus musculus with 6 samples.

Results

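Initiation factors outside the eIF4 group are the proteins that carry the initiator tRNA, hold the small ribosomal subunit open for scanning, select the start codon and join the large subunit. Here they are eIF1, eIF1A, eIF2, eIF2B, eIF3, eIF5, eIF5B and eIF6, the tRNA carriers eIF2A and eIF2D, the kinases of eIF2 and the poly(A)-binding protein Pabpc1. A probe set was a member when the array annotation gave it 1 symbol and that symbol was among 33 listed genes. The rule found 83 of the 45037 probe sets tested, and they stood for 29 of the 33 genes. No probe set of that kind was found for Eif1, Eif2s1, Eif3g and Eif3j, and these genes have no value here.

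The study asked what more of 1 gene of the Williams-Beuren syndrome region, WBSCR1 (EIF4H), does to the transcriptome of undifferentiated mouse ES cells. Line EBRTcH3, derived from E14 ES cells through EB3, carried the human WBSCR1 open reading frame without its UTRs, tagged with 3xFLAG, expressed from the ROSA26 locus by a promoter that tetracycline shuts off. Clones A1, A3 and A4 were each cultured with tetracycline (control) or for 24 h without it (induced), in medium with LIF, and 1 Affymetrix whole-genome expression array was hybridized for each clone and condition. All 6 arrays therefore carry the transgene and the regulator, each clone is 1 line, and the transgene and the removal of tetracycline cannot be told apart.

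In the textbook scheme, eIF2 with GTP brings the initiator methionyl-tRNA to the small subunit, which already holds eIF1, eIF1A, eIF3 and eIF5. The joined complex scans the leader until eIF5 helps eIF2 to hydrolyse its GTP at the start codon, and eIF5B then brings the large subunit in. eIF2B reloads eIF2 with GTP, and 4 kinases slow that step under stress by phosphorylating the alpha subunit of eIF2. WBSCR1 itself acts with the eIF4 group, which unwinds the leader ahead of these factors.

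Promoters of some members are shown so that they can be read beside the values below. Eif5, Eif5b, Eif3a, Eif3d and Eif3l were picked by hand from the members with lower signals in clone A3. Not every such member is shown. Each window holds 100 bases before the annotated start and 20 from it, 5′ to 3′ on the gene's strand, from RefSeq with assembly GRCm38.p6. Eif5 is at chr12:111538001-111538120 on the plus strand, Eif5b at chr1:37997910-37998029 on the plus strand and Eif3a at chr19:60790674-60790793 on the minus strand. Eif3d is at chr15:77970805-77970924 on the minus strand and Eif3l at chr15:79075123-79075242 on the plus strand. Capitals mark a match to the ETS motif CCGGAAG, read on either strand.
Eif5: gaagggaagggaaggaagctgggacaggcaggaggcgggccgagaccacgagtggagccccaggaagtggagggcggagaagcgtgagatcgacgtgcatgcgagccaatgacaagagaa
Eif5b: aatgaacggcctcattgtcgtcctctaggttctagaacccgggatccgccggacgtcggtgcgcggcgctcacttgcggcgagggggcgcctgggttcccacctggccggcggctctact
Eif3a: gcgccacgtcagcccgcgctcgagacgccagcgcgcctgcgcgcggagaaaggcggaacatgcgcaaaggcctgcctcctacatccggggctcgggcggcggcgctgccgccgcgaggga
Eif3d: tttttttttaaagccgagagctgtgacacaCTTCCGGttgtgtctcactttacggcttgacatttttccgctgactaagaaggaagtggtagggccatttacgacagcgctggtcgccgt
Eif3l: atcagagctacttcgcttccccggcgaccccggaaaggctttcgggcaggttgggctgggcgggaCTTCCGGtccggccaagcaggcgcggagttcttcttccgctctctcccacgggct

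Of the 33 listed genes, 27 had a promoter entry, and Eif3e, Eif3h, Eif3i, Eif2b3, Eif6 and Pabpc1 had none. In windows of 300 bases on both strands, CCGGAAG was present in 9 of these 27 promoters (33.3%), those of Eif3c, Eif3d, Eif3g, Eif3l, Eif3m, Eif2b2, Eif2b4, Eif2ak1 and Eif1ax, and in 9.12% of all 27025 promoters. The YY1 motif AAGATGGC was in 2 (7.41%, Eif3f and Eif2s3x) against 2.88% of all, and the NRF1 motif GCATGCGC in 2 (7.41%, Eif3k and Eif2s1) against 2.80%. The CRE motif TGACGTCA was in 0 of the 27 and in 1.88% of all. These matches describe letters in a window, and no binding was measured here.

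The deposited values are log2 signals of the robust multiarray average (RMA), on which a difference of 1 is a 2-fold change. Array medians were 5.11 to 5.19 log2 and those of the member probe sets 10.12 to 10.24, so most of the members were bright. The mean over arrays was under 5 log2 for 17 of the 83. ES cell markers were high, with Pou5f1 (1417945_at) at 12.83 to 12.93 and Nanog (1429388_at) at 12.15 to 12.40. The fibroblast markers Dcn, Lum, Col1a1 and Col3a1 lay at or under 5.01 on every array, and Thy1 (1423135_at), the highest of that list, at 6.88 to 7.37. The probe set 1416941_s_at of mouse Eif4h read 11.86 to 12.03 in control and 11.80 to 12.11 in induced arrays, and the induction of the human transgene was not checked by the arrays. The 18S control probe sets averaged 5.66 to 7.27 log2 and were highest on both arrays of clone A3 among arrays of the same condition, and the 3′ minus 5′ difference of the actin probe sets was 0.32 and 0.29 in A3 and 0.40 to 0.45 in A1 and A4.

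No initiation factor gene responded detectably to 24 h without tetracycline. Over the 83 probe sets, 44 were higher and 39 lower in the induced arrays, the changes ran from -0.28 to 0.25 log2 and the median was 0.00, as it was over all probe sets. None was called by limma at an adjusted p under 0.05, and 0 of the 45037 probe sets were (0%). At an unadjusted p under 0.05, 0 of the 83 passed, against 1.5% of all probe sets. The 95% interval of the change lay within 0.5 log2 of 0 for 64 of the 83 and within 1 log2 for all 83, so a 2-fold change was outside the interval of every member. This fit left clone out, so differences between clones entered the widths of these intervals.

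**Figure D1:**
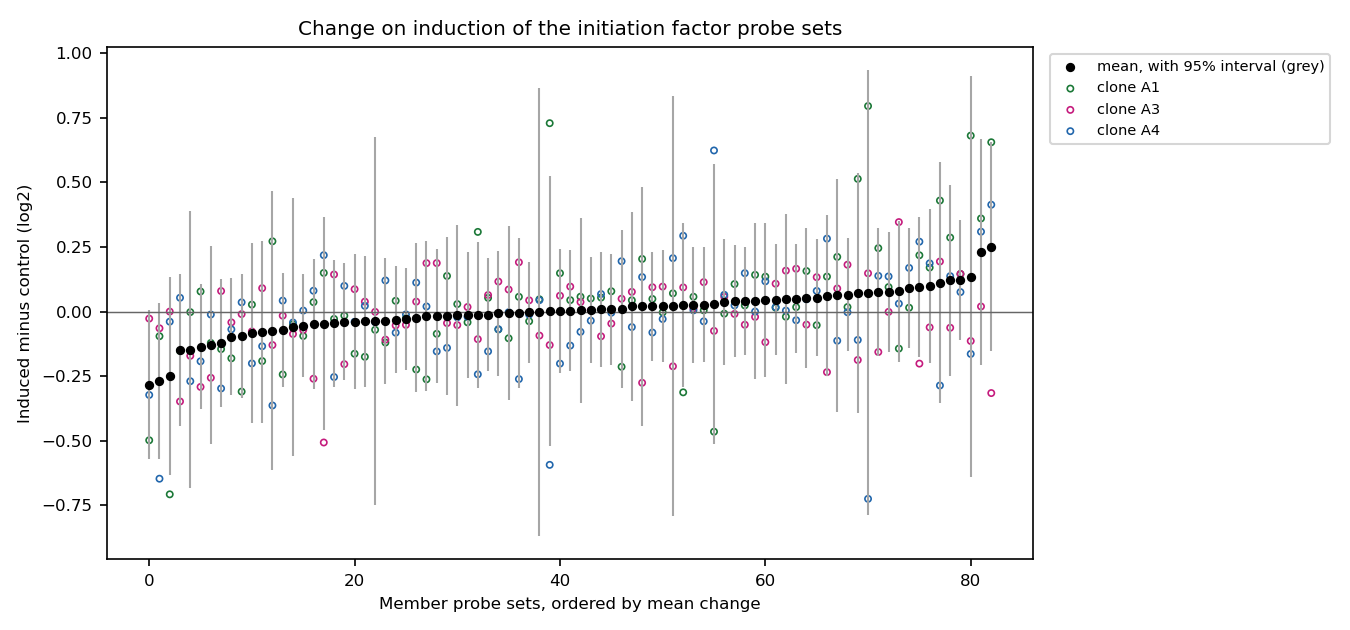
Change from control to induced arrays for the 83 member probe sets, ordered by mean (y axis, log2). Black points are means of 3 clones with 95% limma intervals of the fit without clone in grey, and coloured rings are single clones. The means lie between -0.28 and 0.25, and the rings of single clones spread further, to 0.79 and -0.72 for an Eif5 probe set.

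The lower member probe sets with the smallest unadjusted p were dim, under 5 log2 on average. For Eif3l (1455811_at), which codes for an eIF3 subunit, control signals were 4.51, 4.12 and 4.45 log2 in A1, A3 and A4 and induced signals 4.02, 4.09 and 4.13, a change of -0.28 ± 0.12 (SE, limma adjusted p = 0.999942). The control array of A3 lay among the induced arrays, and the bright Eif3l probe set (1423728_at) changed by 0.02 ± 0.16. For Eif2ak4 (1443235_at), the gene of the amino acid sensor GCN2, control signals were 4.17, 4.17 and 4.51 and induced signals 4.07, 4.10 and 3.86, a change of -0.27 ± 0.13 (limma adjusted p = 0.999942). It was the 1 member probe set of 83 (1.2%) whose induced arrays all lay on one side of its control arrays, and 5.53% of all probe sets did so. The brighter Eif2ak4 probe set (1421389_a_at) changed by 0.02 ± 0.20.

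Eif2d gave 1 probe set on either side, and both were dim. Eif2d (1440968_at), for the tRNA carrier ligatin, was 4.18, 3.65 and 3.59 log2 in the controls and 3.47, 3.65 and 3.55 after induction, a change of -0.25 ± 0.16 that came mostly from clone A1. A second Eif2d probe set (1445172_at) was 3.98, 3.83 and 3.86 against 4.12, 3.97 and 3.93, a change of 0.12 ± 0.10. The main Eif2d probe set (1436724_a_at) stayed between 10.70 and 10.84. These probe sets of 1 gene did not move together.

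Eif2a and Eif2ak3 had the largest positive changes, and neither was even across clones. Eif2a (1434452_x_at), for a tRNA carrier that does not need GTP, was 9.23, 9.73 and 9.28 log2 in the control arrays of A1, A3 and A4 and 9.89, 9.42 and 9.69 in the induced arrays. The change was 0.65 in A1, -0.32 in A3 and 0.41 in A4, with a mean of 0.25 ± 0.17 (limma adjusted p = 0.999942), and Eif2a 1460575_at changed by 0.01 ± 0.15. Eif2ak3 (1453505_a_at), the gene of the endoplasmic reticulum stress kinase PERK, was 4.00, 4.66 and 4.09 in the controls and 4.36, 4.68 and 4.40 after induction, a change of 0.23 ± 0.19. The brighter Eif2ak3 probe set (1449278_at) changed by 0.02 ± 0.09.

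By role, the signs were mixed. Of 27 probe sets of eIF3, the scaffold that bridges the small subunit and the eIF4 group, 14 were higher and 13 lower. Of 9 for eIF2, 3 were higher and 6 lower, and for the 8 of its exchange factor eIF2B the split was 4 and 4. The kinases had 6 higher and 7 lower, the carriers Eif2a and Eif2d 7 and 2, the start site and joining factors 9 and 6, and Pabpc1 1 and 1. In all, 14 of the 83 moved the same way in the 3 clones.

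Differences between clones were called where those between conditions were not, and they set clone A3 apart from A1 and A4. The F test over clones called 5 member probe sets of 83 (6.02%), close to the 5.54% of all probe sets, so the members did not stand out by this count. The 5 were 3 of Eif5 and 2 of Eif5b, genes of the factors that act at start codon recognition and at subunit joining. In the contrast of A3 with the mean of A1 and A4, 8 member probe sets were lower (9.64%, against 5.68% of all). Another 1 was higher (1.2%, against 3.89% of all). Most members were bright, and of 9716 genes with a mean of at least 6 log2, by 1 probe set each, 10.1% were called lower. That share was near the share of the members. Between A1 and A4 none of the 83 was called, and 0.0178% of all probe sets were. In these bulk samples, fewer cells of a type and less RNA per cell cannot be told apart.

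Eif5, whose protein makes eIF2 hydrolyse GTP, had the lowest relative signal in A3 of all members. Probe set 1433631_at read 11.60, 10.62 and 11.61 log2 in the control arrays of A1, A3 and A4 and 11.64, 10.53 and 11.66 in the induced arrays. The difference was -1.05 ± 0.10 log2 (SE, n = 2 arrays of A3 against 4, limma adjusted p = 0.00118), or 48.2% of the other clones' signal with a 95% interval of 41.1% to 56.4%. It was the same gap in both conditions, with -0.98 in the controls and -1.12 after induction.

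The other probe sets of Eif5 showed the same low clone. Probe set 1415723_at was 11.25, 10.35 and 11.22 in the controls and 11.18, 10.35 and 11.18 after induction, a difference of -0.85 ± 0.10 (limma adjusted p = 0.00235, 55.3% of the others). Probe set 1454663_at was 11.18, 10.31 and 11.02 against 11.25, 10.10 and 11.23, a difference of -0.97 ± 0.12 (limma adjusted p = 0.00304, 51.1%). In these 3 probe sets A1 and A4 lay close together, with A1 minus A4 at -0.02, 0.02 and 0.08 log2, and A3 was apart from both. Probe set 1454664_a_at was lower by -0.84 ± 0.18 (limma adjusted p = 0.0238), and 1456256_at by -0.79 ± 0.26 without a call (limma adjusted p = 0.103). Both A3 arrays were below the other 4 in all 5 Eif5 probe sets.

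Eif5b, the GTPase that joins the large subunit, was the next lowest in A3. Probe set 1434604_at read 10.40, 9.87 and 10.44 log2 in the controls of A1, A3 and A4 and 10.35, 9.78 and 10.39 after induction, a difference of -0.57 ± 0.10 (limma adjusted p = 0.0103, 67.3% of the others). Probe set 1434605_at read 9.14, 8.64 and 9.32 and then 9.14, 8.47 and 9.05, a difference of -0.61 ± 0.10 (limma adjusted p = 0.0110, 65.4%). Both A3 arrays lay below the other 4 in each. The dimmer 1435592_at, at 5.45 to 5.86, differed by -0.18 ± 0.12 and was not called.

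No probe set of Eif1ax or Eif6 was called in A3. Eif1ax, for eIF1A, which opens the scanning complex with eIF1, was 11.36 to 11.51 over the 6 arrays (1419736_a_at), and A3 differed by 0.05 ± 0.10. Of the 5 probe sets counted for it, 2 carry the symbol Eif1a, a separate gene, and differed by -0.07 and -0.11. The other Eif1ax probe sets went opposite ways, at -0.30 ± 0.15 for 1437071_at and 0.26 ± 0.10 for 1449576_at, where both A3 arrays were above the other 4. Eif6, which keeps the large subunit from joining too early, was 11.61 to 11.67 in A1 and A4 and 11.88 and 12.04 in A3 (1427578_a_at), a difference of 0.32 ± 0.10 that was not called (limma adjusted p = 0.0947).

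**Figure D2:**
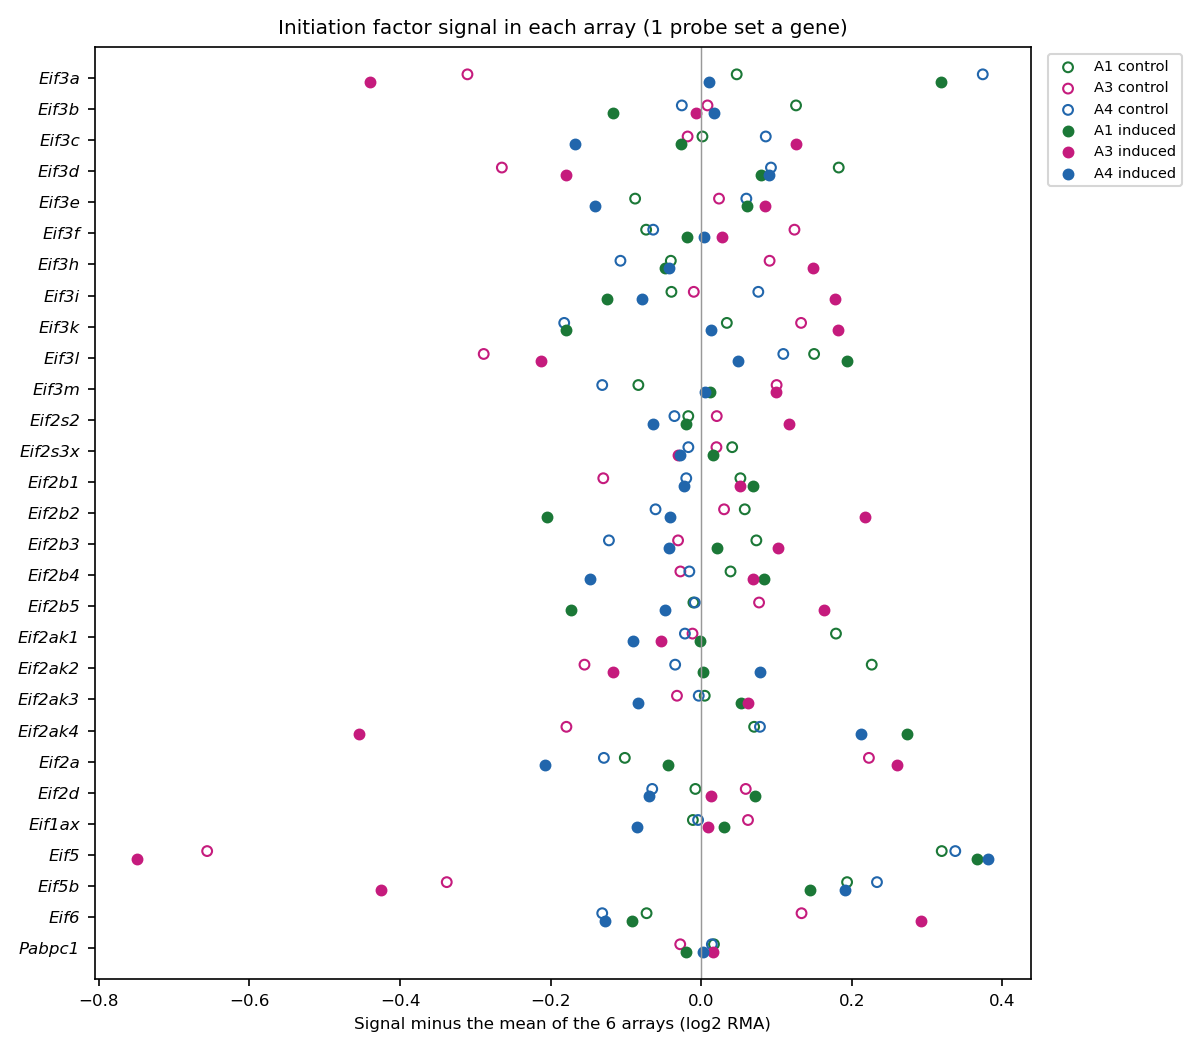
Signal on each array minus the mean of the 6 arrays (x axis, log2 RMA) for the brightest probe set of each of the 29 genes, where rings are control and filled points induced arrays, coloured by clone. A3 stands to the left of A1 and A4 in both conditions for Eif3a, Eif3d, Eif3l, Eif2ak4, Eif5 and Eif5b, among others, and to the right for Eif2a and Eif6, among others.

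Among the eIF3 subunits 1 of 27 probe sets was called, and it was lower in A3. Eif3a, for the largest subunit and the scaffold of the complex, read 11.82, 11.46 and 12.15 log2 in the controls of A1, A3 and A4 and 12.09, 11.33 and 11.78 after induction (1448425_at), a difference of -0.56 ± 0.14 (limma adjusted p = 0.0431, 67.7% of the others). The other 3 Eif3a probe sets differed by -0.35, -0.35 and -0.41 and were not called, with limma adjusted p between 0.0611 and 0.151. Both A3 arrays were lowest in all 4 of them.

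Eif3l and Eif3d came next. Eif3l (1423728_at) was 12.73, 12.29 and 12.69 in the controls and 12.77, 12.37 and 12.63 after induction, a difference of -0.38 ± 0.10 (limma adjusted p = 0.0531). Eif3d, for a subunit able to bind the mRNA cap, was 12.81, 12.36 and 12.72 and then 12.70, 12.45 and 12.71 (1416100_at), a difference of -0.33 ± 0.10 (limma adjusted p = 0.0823). In both genes the A3 arrays lay below the other 4. Neither passed the test in the main fit, though each was called under some alternatives.

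None of the other eIF3 subunits was called in A3. By their brightest probe sets, A3 differed by 0.00 ± 0.11 for Eif3b and 0.08 for Eif3c, 0.08 for Eif3e and 0.11 for Eif3f. The values were 0.18 ± 0.10 for Eif3h, 0.13 for Eif3i, 0.24 ± 0.12 for Eif3k and 0.15 for Eif3m. Over all 27 eIF3 probe sets the A3 differences ran from -0.56 for Eif3a to 0.24 for Eif3k on the log2 scale.

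None of the 9 eIF2 and 8 eIF2B probe sets was called in A3. Eif2s2, for the beta subunit, was 13.08 to 13.26 over the 6 arrays (1417712_at, A3 difference 0.10 ± 0.10), and Eif2s3x, for the gamma subunit that binds GTP, was 11.67 to 11.74 (1423744_x_at, -0.01 ± 0.10). A dim Eif2s2 probe set (1441023_at) was 4.61 and 4.86 in A3 and 4.97 to 5.19 in the others, a difference of -0.38 ± 0.10 (limma adjusted p = 0.0614). Of eIF2B, the regulatory subunits Eif2b1, Eif2b2 and Eif2b4 differed by -0.06, 0.19 and 0.03 and the catalytic part Eif2b3 and Eif2b5 by 0.05 and 0.18, each by the brightest probe set. The eIF2B probe sets spanned -0.18 to 0.19.

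The kinases of eIF2 held the only member probe set that was called higher in A3. It was the dim Eif2ak3 probe set given above, at 4.66 and 4.68 in A3 and 4.00 to 4.40 in the others, a difference of 0.46 ± 0.11 (limma adjusted p = 0.0415), while the other Eif2ak3 probe sets differed by 0.00 and 0.02. Eif2ak4 (1421389_a_at) was 6.96, 6.71 and 6.97 in the controls and 7.16, 6.44 and 7.10 after induction, a difference of -0.48 ± 0.12 (limma adjusted p = 0.0548). Eif2ak2, for the kinase PKR that senses double-stranded RNA, differed by -0.20 ± 0.11 (1422006_at). Eif2ak1, for the heme-regulated kinase HRI, differed by -0.05 ± 0.10 in its brightest probe set (1421901_at) and by 0.34 ± 0.11 in a dimmer one (1436006_at, limma adjusted p = 0.0960).

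Among the tRNA carriers and Pabpc1, the probe sets of Eif2a and of Pabpc1 gave unlike A3 differences. Eif2a (1460575_at) was 10.38 and 10.42 in A3 and 9.95 to 10.12 in the others, a difference of 0.36 ± 0.10 (limma adjusted p = 0.0604), but 1434452_x_at differed by 0.05 ± 0.18. Eif2d (1436724_a_at) differed by 0.05 ± 0.10, and all Eif2d probe sets lay between -0.10 and 0.09 without a call. Pabpc1, whose protein binds the poly(A) tail and the eIF4G scaffold, was 13.50 to 13.54 on every array (1418883_a_at). Its dimmer probe set (1453840_at) read 6.80, 6.35 and 6.92 in the controls and 7.02, 6.44 and 6.81 after induction, a difference of -0.49 ± 0.11 (limma adjusted p = 0.0297). Near the threshold, the called Eif3a probe set had an adjusted p of 0.0431 and the uncalled Eif3l of 0.0531 in limma.

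**Figure D3:**
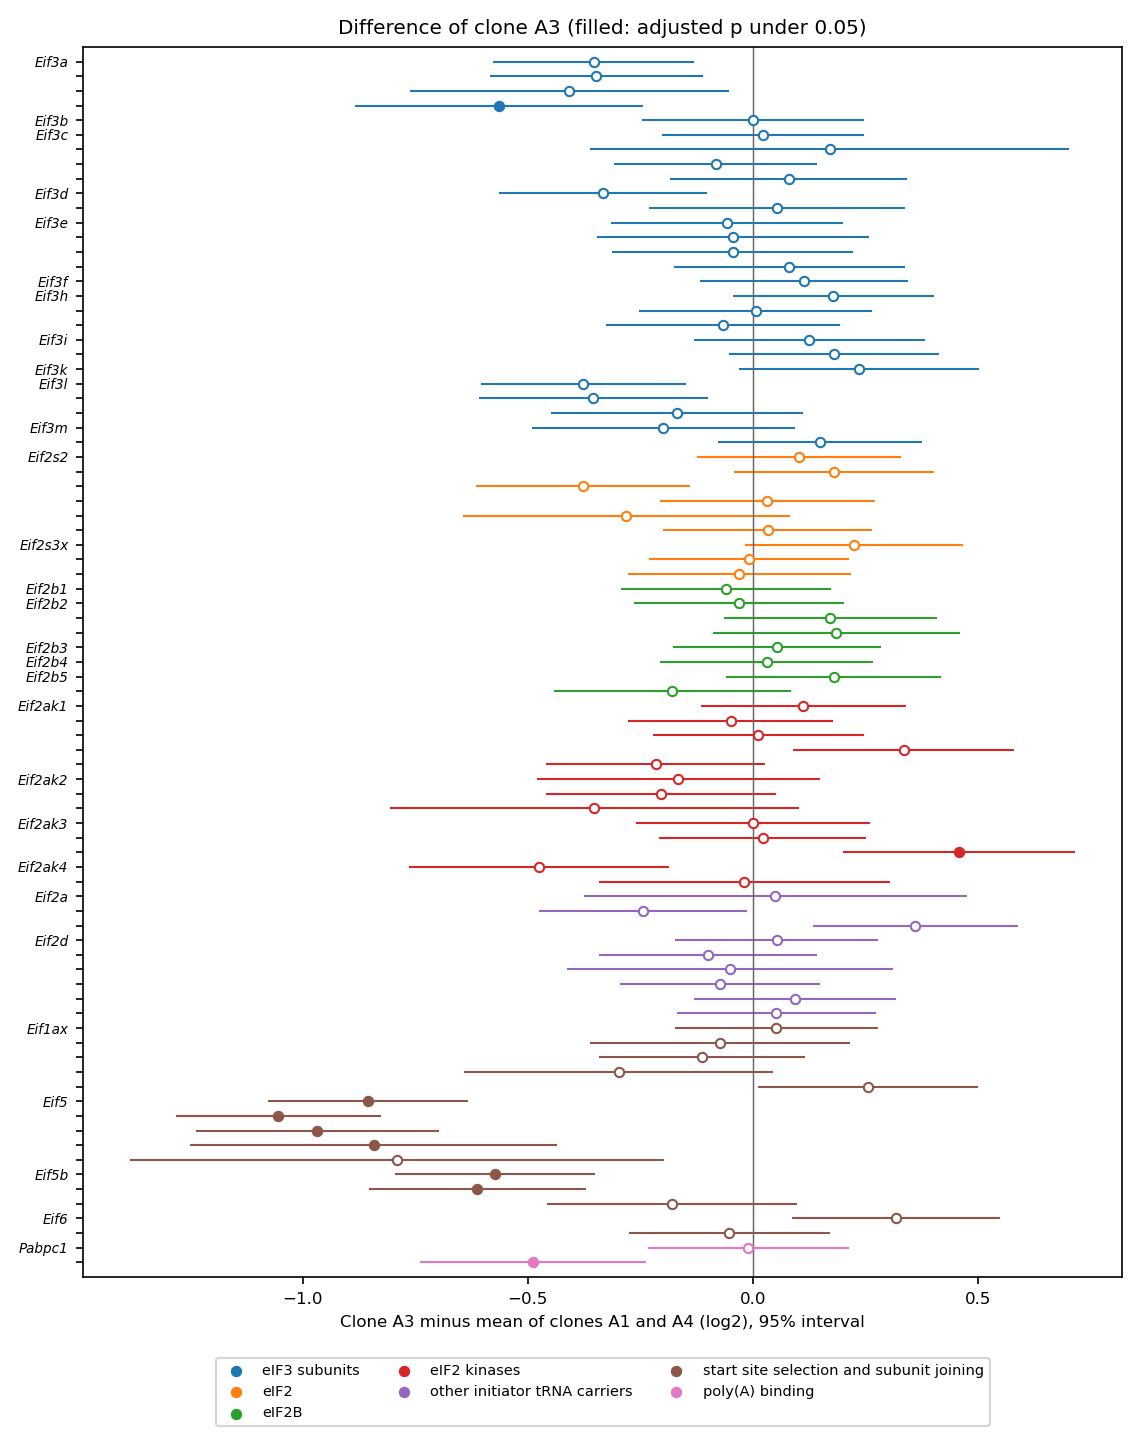
Signal of clone A3 minus the mean of A1 and A4 (x axis, log2) for all 83 member probe sets, grouped by role with 95% limma intervals; filled points had an adjusted p under 0.05. Eif5 and Eif5b lie furthest left, between -1.05 and -0.57 where called, and eIF2 and eIF2B hold no filled point.

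Counted by rank alone, both A3 arrays were below the other 4 in 22 of the 83 probe sets (26.5%) and above them in 17 (20.5%). Over all probe sets the shares were 16.6% and 19.8%. Most members were brighter than most probe sets, and no such share was taken over bright probe sets alone. The median A3 difference was -0.03 log2 over the 83 and 0.03 over all. The 22 probe sets came from 13 genes, and Eif3a and Eif5 gave 9 of them. Markers of another cell type moved with A3 as well. Of 25 probe sets for primitive and visceral endoderm 7 were called lower in A3, against 5.68% of all probe sets. Among them were Dab2 (1420498_a_at), Sox17 (1429177_x_at), Sox7 (1416564_at), Gata6 (1425464_at), Gata4 (1418863_at) and Pdgfra (1421917_at). The summed linear signal of the list was 271 and 290 in A3, 348 and 380 in A4 and 465 and 503 in A1. A4 thus also lay below A1. Afp was at or under 4.08 log2 throughout. Of 16 ES cell marker probe sets, 2 of Klf4 were lower in A3 and 1 of Lin28a higher, and of 13 fibroblast probe sets none was called. The part of such cells, or of the 18S level and the actin difference given above, in the A3 differences was not tested.

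The position of the members in the genome was set beside their A3 difference. From the gene table of assembly GRCm38.p6, 9716 genes with a mean of at least 6 log2 were put in order along the chromosomes, with 1 probe set each. Of these, 10.1% were called lower in A3. The 10 genes on either side of Eif5 on chromosome 12 had a median difference of -0.73 log2, and 14 of these 20 were called lower. The neighbours of Eif5b on chromosome 1 had a median of -0.08 with 1 of 20 called, and those of Eif3a on chromosome 19 -0.07 with 1 of 12.

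Eif5 lay within a run of genes that were low together in A3. From Setd3 to Klc1 there were 30 ordered genes, of which 24 were called lower, 0 higher and 6 neither, with a median of -0.75. The run had a median of -0.83 in the control arrays and -0.77 in the induced arrays, and of 0.05 for A1 minus A4. It includes Ccnk at -1.47, Tecpr2 at -1.43, the dynein heavy chain gene Dync1h1 at -1.37, Yy1 at -1.06, Ckb at -0.85 and the chaperone gene Hsp90aa1 at -0.54. The 6 not called were Slc25a29, the imprinted RNAs Meg3, Rian and Mirg, and Ankrd9 and Tnfaip2. The 24 genes after the run had a median of 0.02 with 1 called lower and 1 higher (Zfyve21, 0.52), and the 7 shown before it 0.05 with 1 called lower. The ends of the run were chosen from these values, and no test was made of it. Eif2b2, also on chromosome 12, differed by 0.19, and its neighbours by a median of 0.06.

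**Figure D4:**
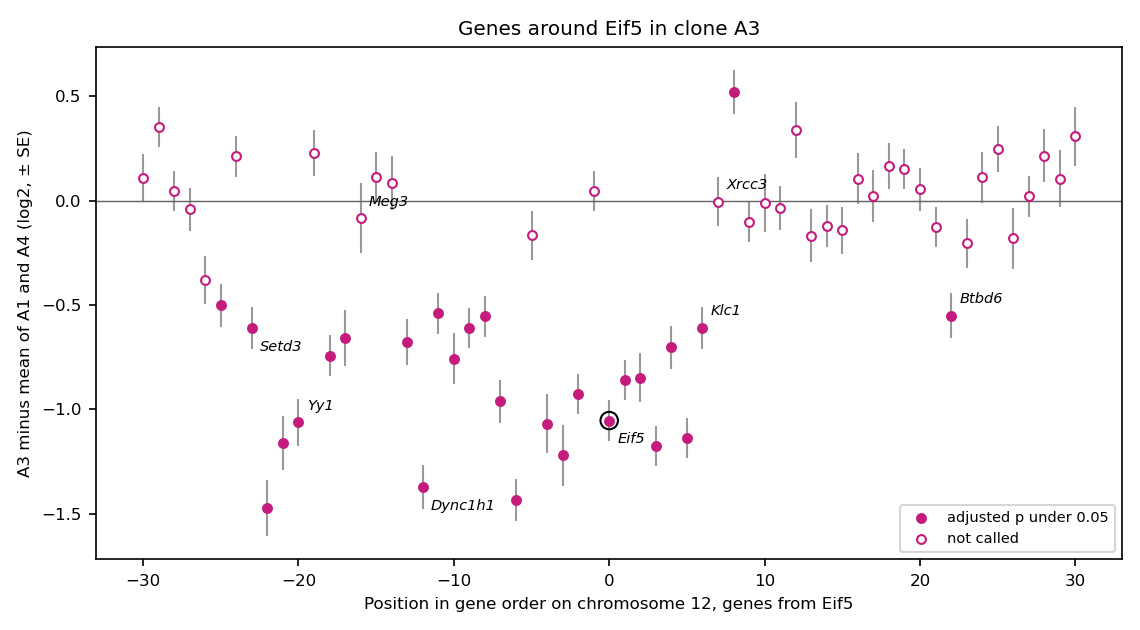
A3 minus the mean of A1 and A4 (y axis, log2, with SE) for expressed genes on chromosome 12 by their position in gene order from Eif5, which is circled; filled points had an adjusted p under 0.05. The points from Setd3 to Klc1 lie mostly between -0.54 and -1.47, and those after Klc1 lie around 0.

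Of the members, 5 lay on chromosome 15. Over the 407 ordered genes of this chromosome the median A3 difference was -0.28, and 147 were called lower (36.1%). In gene order the members were Pabpc1, Eif3e, Eif3h, Eif3d and Eif3l, with differences of -0.01, 0.08, 0.18, -0.33 and -0.38 by their brightest probe sets. Between Pabpc1 and Eif3e the genes had a median of -0.01 with 1 of 11 called lower, and between Eif3e and Eif3h -0.03 with 0 of 5. From Eif3h to Eif3d the median was -0.25 with 28 of 103 called lower, from Eif3d to Eif3l -0.29 with 7 of 19, and beyond Eif3l -0.43 with 108 of 214. None of these 5 probe sets was called in the main fit. The dimmer Pabpc1 probe set (1453840_at), the 1 member probe set that this fit called on the chromosome, was at -0.49. The genes around Pabpc1 had a median of 0.01. Eif4b, of the eIF4 group, lies on the same chromosome and was lower by -0.41 ± 0.10 (1426380_at, limma adjusted p = 0.0435).

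**Figure D5:**
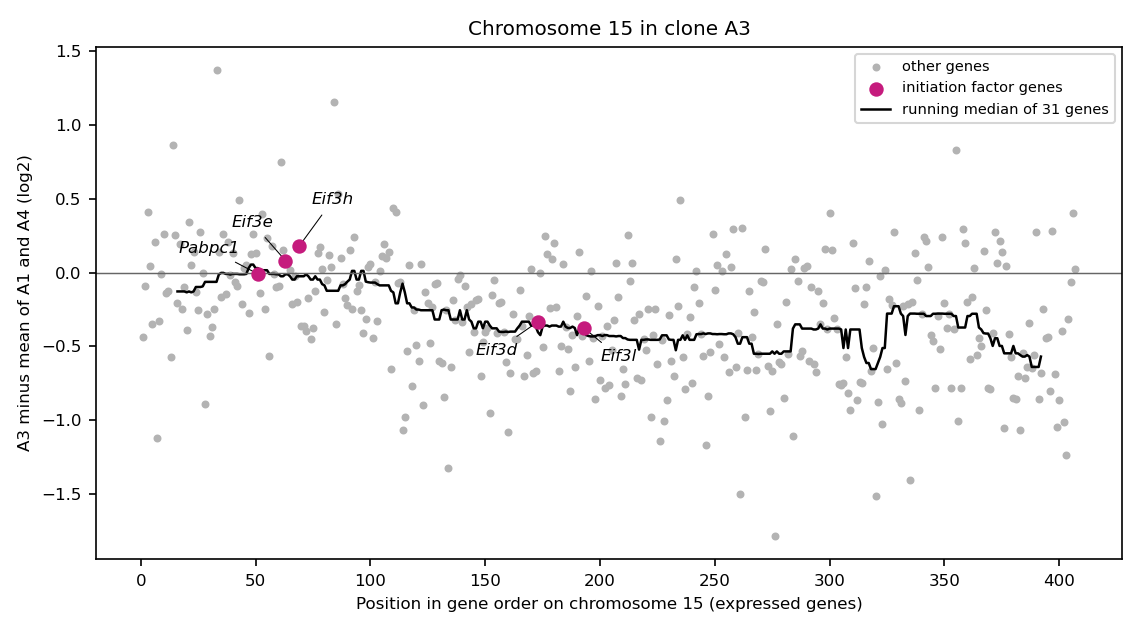
A3 minus the mean of A1 and A4 (y axis, log2) for 407 expressed genes in order along chromosome 15 (x axis); the 5 members are coloured, each by its brightest probe set, and the line is a running median over 31 genes. Pabpc1, Eif3e and Eif3h are plotted at -0.01, 0.08 and 0.18 in the first part, and Eif3d and Eif3l at -0.33 and -0.38 where the line is below 0.

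On other chromosomes some members had the sign of their neighbours' median and some did not, without a test. Eif2ak2 on chromosome 17 was at -0.20 among neighbours at -0.14, and Eif3k on chromosome 7 at 0.24 among neighbours at 0.10. Eif2a on chromosome 3 was higher by 0.36, whereas its 20 neighbours had a median of -0.18 and 6 of them were called lower. Eif2ak4 on chromosome 2 was at -0.48 among neighbours at -0.03. Eif6, also on chromosome 2, was at 0.32 among neighbours at 0.05.

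With the arrays paired by their titles, some members moved in opposite directions in A1 and A4 on induction. The Eif5 probe set 1456256_at went from 7.37 to 8.17 in A1, from 6.79 to 6.94 in A3 and from 7.91 to 7.18 in A4. The Eif3c probe set 1415859_at, for a core eIF3 subunit, went from 10.09 to 10.82 in A1, from 10.70 to 10.57 in A3 and from 10.77 to 10.18 in A4. The other Eif3c probe sets changed by -0.05 to 0.04 on average. With 1 array for each clone and condition, no test of these differences was possible.

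Other genes of translation were read in the same fits, from lists set out beside the members. None of 43 probe sets of the eIF4 group was called on induction, and Eif4g3 (1426833_at) had the smallest unadjusted p of them at -0.33 ± 0.12 (limma adjusted p = 0.999942), followed by Eif4e (1444010_at) at 0.18 ± 0.09. None of 36 for elongation, termination and recycling was called, with Eef2 (1440784_at) at 0.30 ± 0.13 and Denr (1420367_at) at 0.27 ± 0.13. None of 32 for partners and paralogs was, with Nck1 (1424543_at) at 0.27 ± 0.12 and Paip2b (1457567_at) at -0.23 ± 0.15. In A3, 3 of the 43 probe sets of the eIF4 group were called lower and 1 higher. Of the 36 of the elongation list 1 was called lower, and of the 32 for partners and paralogs 3 were called higher. Over all probe sets 5.68% were called lower and 3.89% higher.

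Of the 32 probe sets for partners and paralogs, 2 were called by the F test over clones, against 5.54% of all probe sets. Both were higher in A3. Impact (1415911_at), whose protein restrains GCN2, was higher by 0.82 ± 0.10 (limma adjusted p = 0.00336), and Eif2s3y (1417210_at), the Y-linked copy of the eIF2 gamma gene, by 0.66 ± 0.12 (limma adjusted p = 0.0135). Of 31 probe sets for genes that rise when eIF2 is phosphorylated, 0 were called on induction, with 8 higher and 23 lower and a median of -0.03, and Atf5 (1425927_a_at) at -0.21 ± 0.10 and Vldlr (1417900_a_at) at -0.41 ± 0.24 had the smallest unadjusted p. In A3, 2 of the 31 were called higher, against 3.89% of all probe sets. They were Vldlr at 0.63 ± 0.12 and Asns (1451095_at) at 0.41 ± 0.10.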

How the data were processed

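The authors hybridized RNA of 6 cultures to Affymetrix whole-genome mouse arrays and deposited log2 signals, made with the RMA function of the affy package (version not given in the sources used here). RMA background-corrects, quantile-normalizes and summarizes probes, so a shift common to all genes is not seen. No further normalization was applied. Of 45101 probe sets, 64 controls were left out. Symbols came from the platform annotation (1 symbol for 34945, several for 932, none for 9160), and 34741 probe sets matched the gene table. Probes were not remapped, and probe sets ending in _x_at or _s_at (15 of 83) may share sequence with other genes.

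Groups, replicates and clones came from the sample titles. limma 3.58.1 in R 4.3.3 fitted condition alone for induction, and condition plus clone for the F test and contrasts of clones, two-sided, with Benjamini-Hochberg adjustment over all 45037 probe sets. Tests were checked on simulated data, which for induction held no differences between clones, unlike these arrays. Clone comparisons rest on 2 arrays of 1 culture pair per clone, and p-values measure the spread between these arrays. Replicate numbers are clones, and by the titles they pair the arrays. Deviations from group means correlated at 0.31 (A1), 0.67 (A3) and 0.29 (A4) within clones. Control A4 with induced A1 gave 0.37 and control A1 with induced A4 0.35, so the values pair A3 but do not tell A1 from A4. Full values were printed for member probe sets called by either test, the 3 highest and 3 lowest by induction p, and the 2 with the largest opposite changes in A1 and A4; others are given by their brightest probe set, and from each other translation list 2 genes by induction p. The description by gene order was chosen after seeing the data. The members and lists were chosen with earlier results of these data known. Alternatives covered normalization, filters, eBayes options, array weights, the block and leaving out arrays. The number of arrays limits the precision.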

Additional observations from a re-analysis of the deposited data

Results flagged for a closer look

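Opposite changes in clones A1 and A4 of at least 0.5 log2 on induction were found in 2 member probe sets. These differences were not tested, since each clone has 1 array per condition. They rest on the pairing of arrays by title, and the values did not tell A1 from A4. The Eif5 probe set 1456256_at changed by 0.79 in A1, -0.72 in A4 and 0.15 in A3. The Eif3c probe set 1415859_at changed by 0.73 in A1, -0.59 in A4 and -0.13 in A3.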

How the results depend on the processing

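The count of member probe sets called on induction was 0 under every alternative, the replicate block by clone included. At an unadjusted p under 0.05 it was 0 in the main fit, 1 with the replicate block, 4 with array weights, 0 with the methods' t-test and 1 with its paired form. Leaving out arrays or clones gave 0 to 4. The count called by the F test over clones (5) was 9 with trend and robust eBayes and 2 with 1 probe set for each symbol, and 1 to 5 when 1 array was left out (1 without the induced and 2 without the control array of A3, 2 without the induced array of A1). Those lower in A3 (8) were 13 over probe sets with a mean of at least 5 log2, 13 with trend and robust eBayes, and 3 to 9 when 1 array was left out (3 without the induced and 5 without the control array of A3, 4 without the induced array of A1). Those higher in A3 (1) were 0 after subtracting array medians, 3 with trend and robust eBayes, 0 with an added threshold of 0.5 log2, and 0 whenever 1 array was left out, so the Eif2ak3 call needed every array. The bright Pabpc1 probe set 1418883_a_at, at -0.01, turned to 0.0085 with cyclic loess and ranged from -0.043 to 0.025 when 1 array was left out (above 0 without the control array of A1 or of A3), none of them called. The median of chromosome 15 in A3 was -0.25 over probe sets and -0.28 with 1 for each symbol. With 5 genes on each side, chosen after seeing the data, the neighbours' median was -0.89 for Eif5, -0.27 for Eif3d and -0.43 for Eif3l. The 3 Eif5 probe sets called by the F test kept their direction and A3 call under all alternatives run; the fourth called Eif5 probe set (1454664_a_at) lost it without the control or the induced array of A3 or the control array of A4 (adjusted p 0.0513, 0.224 and 0.0528), and the called ones of Eif5b, Eif3a and Pabpc1 in 3 to 5 alternatives. Other probe sets, not called in the main fit, gained a call as lower in A3. Eif3l 1423728_at did so in 5 of 14 alternatives, Eif3d 1416100_at in 4 of 14 and Eif3a 1416659_at in 4 of 13. Among these alternatives were clone as the only term, the filter at 5 log2 and trend and robust eBayes. The causes were not tested. Between A1 and A4 the count was 0 throughout. With 3 arrays a group, the half-width of the members' 95% intervals on induction was 0.20 to 0.87 log2 (median 0.27), widest for Eif5. The adjusted test needs more than this to make a call. The main induction fit left clone out, so differences between clones entered its error. For Eif5 1433631_at the SE was 0.37 in that fit and 0.09 with the replicate block.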
